A study of Homo sapiens with 6 samples.

Results

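The mitochondrial ribosomal protein genes were described in 6 RNA-seq libraries of the pancreatic carcinoma cell line MIA PaCa-2, an established human line. Members were the rows of the deposited gene table that carry a single gene name beginning with MRPL or MRPS and a number. The rule found 61 of 18268 rows, with 39 MRPL members, named for the large ribosomal subunit, and 22 MRPS members, named for the small one. Another 17 rows join an MRPL or MRPS name with other genes, so they are no members and are given apart. Of the libraries, 3 came from cells labelled as overexpressing the long noncoding RNA LINC00901 and 3 from cells carrying the empty pCDH vector. Both groups were grown in the same serum-supplemented medium, and total RNA was sequenced. Age, dose and time do not enter the design, and the labels do not say whether the cells were pools or clones. Nor do they state that replicates were grown separately, so the p-values reflect only how much these 6 samples vary, and that variation may be technical.

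Mitochondria keep a ribosome of their own, which translates the few mRNAs of the mitochondrial genome into core subunits of the respiratory chain and ATP synthase. Its ribosomal RNAs are made inside the organelle, whereas all of its proteins are encoded in the nucleus, made on cytosolic ribosomes and imported. Some of these proteins have a bacterial homologue, and others were added to the ribosome in the mitochondrial lineage. The large subunit holds the peptidyl transferase centre and the exit tunnel, and the small subunit binds the mRNA and decodes it.

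RefSeq promoter sequences (GRCh38.p14, 250 bases before to 50 after the start of each gene) were matched to 54 of the 61 members. MRPL2, MRPL10, MRPL13, MRPL15, MRPL23, MRPL35 and MRPS36 had no match. Shown are the promoters of the member with the largest and the member with the smallest change in each subunit among those matched, so that the ends of the range described later can be read beside their sequence. All are printed 5′ to 3′ on the strand of the gene. Capitals mark matches to CCGGAAG, the core of the motif bound by ETS factors such as GABPA, or to GCATGCG, part of the motif bound by NRF1. Both were searched on both strands, so that CTTCCGG and CGCATGC are the same motifs read from the other strand, and they do not overlap each other in these windows. MRPL54 lies at chr19:3762432-3762731 on the plus strand, MRPL27 at chr17:50373135-50373434 on the minus strand, MRPS15 at chr1:36464335-36464634 on the minus strand and MRPS23 at chr17:57849995-57850294 on the minus strand.
MRPL54: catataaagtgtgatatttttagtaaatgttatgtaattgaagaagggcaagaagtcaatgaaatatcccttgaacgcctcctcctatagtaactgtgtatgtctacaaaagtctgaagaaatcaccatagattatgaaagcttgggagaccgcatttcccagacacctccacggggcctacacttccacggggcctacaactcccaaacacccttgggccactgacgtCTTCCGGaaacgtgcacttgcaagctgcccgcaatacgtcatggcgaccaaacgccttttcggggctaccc
MRPL27: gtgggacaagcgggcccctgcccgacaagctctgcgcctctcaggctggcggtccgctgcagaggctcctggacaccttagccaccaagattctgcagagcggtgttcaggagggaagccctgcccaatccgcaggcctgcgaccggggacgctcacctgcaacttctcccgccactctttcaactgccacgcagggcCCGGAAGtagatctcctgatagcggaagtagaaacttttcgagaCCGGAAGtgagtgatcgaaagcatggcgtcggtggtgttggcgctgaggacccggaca
MRPS15: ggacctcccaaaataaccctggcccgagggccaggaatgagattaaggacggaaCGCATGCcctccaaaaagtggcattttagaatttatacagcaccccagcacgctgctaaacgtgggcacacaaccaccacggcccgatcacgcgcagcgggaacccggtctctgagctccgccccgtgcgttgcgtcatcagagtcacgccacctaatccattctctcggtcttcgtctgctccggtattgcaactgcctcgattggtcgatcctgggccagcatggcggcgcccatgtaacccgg
MRPS23: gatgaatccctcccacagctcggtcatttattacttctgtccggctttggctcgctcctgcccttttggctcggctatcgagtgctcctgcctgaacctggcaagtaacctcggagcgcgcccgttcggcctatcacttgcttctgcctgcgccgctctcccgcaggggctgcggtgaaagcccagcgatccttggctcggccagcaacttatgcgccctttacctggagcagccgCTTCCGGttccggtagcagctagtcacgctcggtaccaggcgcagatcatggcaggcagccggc

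GABPA and NRF1 are known activators of nuclear genes for mitochondrial proteins. The ETS letters stood in 21 of 54 member promoters (38.9%), in 21.3% of the 7130 promoters matched to tested genes and in 10.7% of all 27305 RefSeq promoters of the same length. NRF1 letters stood in 7 member promoters (13.0%), in 6.76% of those of tested genes and in 4.13% of all promoters. At least 1 motif was found in 26 member promoters (48.1%), in 26.4% of those of tested genes and in 14% of all promoters. By subunit, the ETS letters were in 33.3% of 33 MRPL promoters and in 47.6% of 21 MRPS promoters. A match is a description of these letters and not a binding site.

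The table gives FPKM with 2 decimals, a fragment count divided by gene length and by the size of the library, and depth is unknown. Values summed over all rows were 127768 to 128538 FPKM in overexpression libraries and 87162 to 88738 FPKM in vector libraries. Rows above 0 numbered 13276 to 13428 in overexpression libraries and 12728 to 12807 in vector libraries. No row names LINC00901, so the overexpressed RNA itself was not analysed here. The labels call the cells epithelial. VIM stood at 543.43 to 633.62 FPKM in overexpression libraries and 197.85 to 250.45 FPKM in vector libraries, KRT18 at 62.48 to 86.92 FPKM in overexpression and 90.93 to 105.38 FPKM in vector libraries, and KRT19 at 22.89 to 25.02 FPKM in overexpression and 2.22 to 5.92 FPKM in vector libraries. EPCAM reached at most 0.14 and CDH1 at most 0.08 FPKM in any library. Fibroblast markers summed to 173.9 to 198.5 FPKM in overexpression libraries and 189.1 to 204.4 FPKM in vector libraries, almost all of it collagen, with DCN at most 0.01. Leukocyte markers summed to at most 1.37 FPKM, with PTPRC and CD3E at 0 throughout, and endothelial markers to at most 0.64 FPKM. The part of the markers that differ between groups in the results below was not tested. All 13 rows of mitochondrially encoded genes, whose mRNAs the mitochondrial ribosome translates, are listed at 0 in all 6 libraries, so its own templates cannot be read from this table.

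Mitochondrial ribosomal protein mRNAs were mostly higher in LINC00901 overexpression cells, and none of the 61 was called lower. With limma on log2(FPKM + 0.5), 40 members rose at an adjusted p under 0.05 and 21 were not called. Every member reached the mean of 1 FPKM required for testing, and none was at 0 in any library. The background was high, since 37.4% of the 9694 tested rows rose by the same rule and 11.9% fell. In 48 members the 3 overexpression values all lay above the 3 vector values, and in the other 13 the groups overlapped, against 44.9% of all tested rows standing apart in the higher direction. The median log2 change was 0.65 over the members and 0.27 over all tested rows, with 52 of 61 members above that of all rows and 58 of 61 above 0. Ratios of group means among the 40 ran between 1.32 and 5.94. In bulk RNA, more cells with a high level and more RNA in every cell cannot be told apart.

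The median tested gene thus stood 1.2-fold higher in the overexpression libraries. Log2 changes of single genes are therefore given relative to that median gene, called relative log2 changes, while adjusted p-values are those of the fit to the FPKM as deposited. When each library was instead centred on its own median, 28 members kept their call and none was called lower, beside 24.0% of all tested rows called higher and 19.2% lower. Removing a linear trend on transcript length and GC content gave 25 members called higher, beside 23.2% of rows higher and 17.3% lower. They include MRPL42, which was not called as deposited. Removing a trend on mean level left 21, beside 20.6% of rows higher and 20.4% lower. Quantile normalization left 19, beside 19.2% of rows higher and 20.9% lower. None of these corrections called a member lower. Over all rows the call split was 3621 higher and 1152 lower as deposited, 2331 and 1866 after centring, and 1865 and 2024 after quantile normalization.

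**Figure D1:**
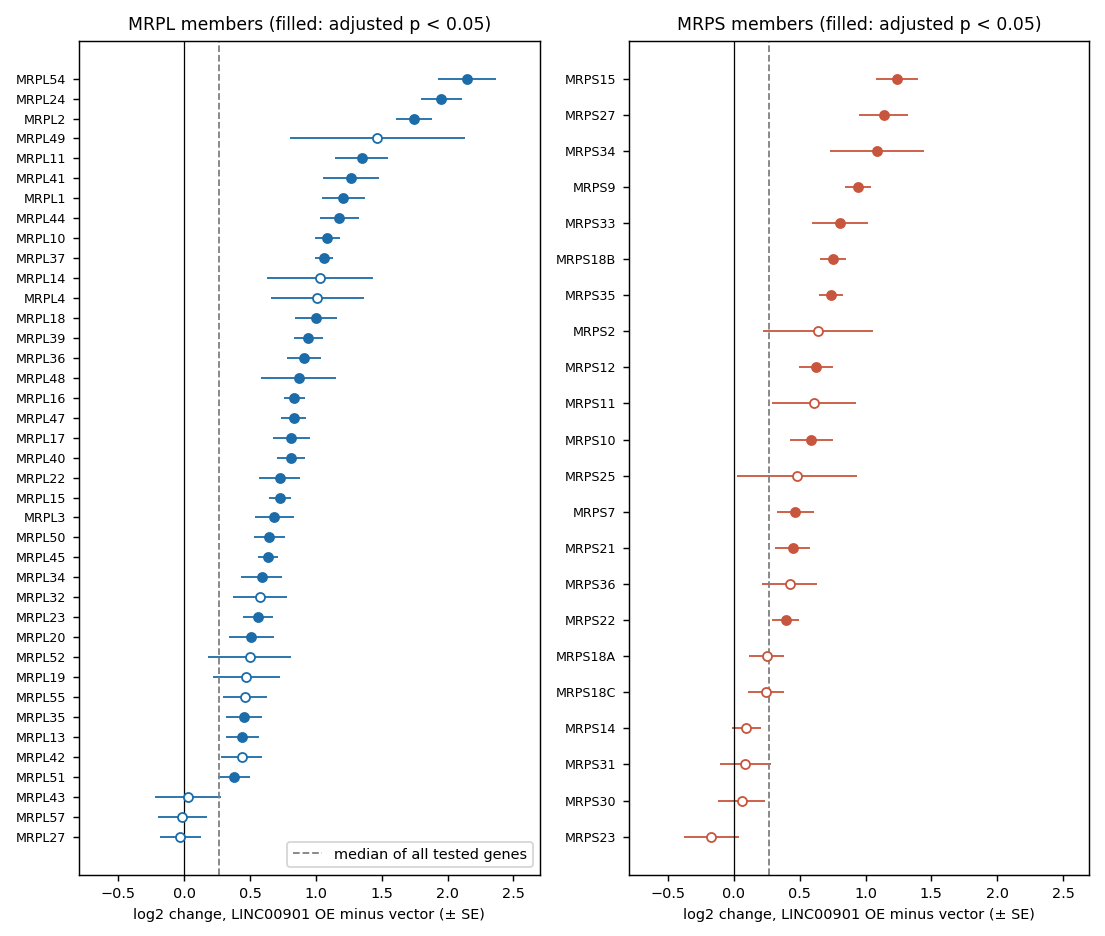
Log2 change of each member on the deposited scale (points, LINC00901 overexpression minus vector, bars ± SE, 3 libraries a group), with MRPL members at left and MRPS members at right. Filled points passed an adjusted p of 0.05 in limma, and the dashed line is the median of all tested genes at 0.27. MRPL54 leads the MRPL members at 2.15 and MRPS15 the MRPS members at 1.24.

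Among the MRPL members, 28 of 39 rose and none fell, with a median log2 change of 0.81 (quartiles 0.50 and 1.05) on the deposited scale. That is 71.8% of them, beside 37.4% of all tested rows. Of the 28, 22 kept the call after centring, 56.4% of the MRPL members beside 24.0% of all rows. The 13 that were called higher as deposited, after centring, after the length and GC correction and after the level correction were MRPL54, MRPL24, MRPL2, MRPL11, MRPL1, MRPL44, MRPL10, MRPL37, MRPL18, MRPL39, MRPL47, MRPL17 and MRPL22. They include genes for parts of the catalytic core, the stalks and the exit tunnel, as well as subunits without a bacterial homologue. Quantile normalization was not part of that selection, and MRPL39 lost its call there (limma adjusted p = 0.0531).

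MRPL54, a subunit without a bacterial homologue, was the member that differed most. It stood at 7.71, 5.36 and 6.18 FPKM in overexpression libraries and at 0.73, 1.55 and 0.96 FPKM in vector libraries. The groups lay far apart, and vector replicates 1 and 3 were under 1 FPKM. Its relative log2 change was 1.88 (SE 0.22, limma adjusted p = 0.000494). MRPL24, whose Escherichia coli homologue binds ribosomal RNA early in assembly of the large subunit, had 13.02, 15.98 and 16.72 FPKM in overexpression libraries and 4.35, 3.45 and 2.95 FPKM in vector libraries. No value of either group came near the other, and the relative log2 change was 1.69 (SE 0.16, limma adjusted p = 0.000223). MRPL2, a core protein beside the peptidyl transferase centre, had 14.99, 19.11 and 16.36 FPKM in overexpression libraries and 4.61, 4.06 and 5.34 FPKM in vector libraries. All overexpression values were again above all vector values, with a relative log2 change of 1.48 (SE 0.14, limma adjusted p = 0.000194).

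The mRNAs of 3 stalk proteins, MRPL11, MRPL10 and MRPL1, rose. MRPL11 sits at the base of the stalk where translation factors dock. It had 13.60, 18.94 and 18.84 FPKM in overexpression libraries and 4.81, 7.76 and 6.86 FPKM in vector libraries, with replicate 1 the lowest of each group and no overlap (relative log2 change 1.08, SE 0.20, limma adjusted p = 0.00201). MRPL10, which anchors the copies of MRPL12 to that stalk, had 17.98, 20.16 and 21.20 FPKM in overexpression libraries and 9.33, 9.19 and 8.59 FPKM in vector libraries. Its groups were tight and apart (relative log2 change 0.82, SE 0.09, limma adjusted p = 0.000283). MRPL12 itself has no row of its own. The row that joins SLC25A10, MRPL12 and AC139530 had 18.35 ± 1.08 FPKM in overexpression libraries and 7.55 ± 1.34 FPKM in vector libraries (SD, n = 3 each; limma adjusted p = 0.000612), and its value cannot be assigned to MRPL12. MRPL1, of the opposite stalk where spent tRNA leaves, had 12.62, 11 and 11.92 FPKM in overexpression libraries and 4.43, 6.31 and 4.03 FPKM in vector libraries. The gap between its groups exceeded the range within either (relative log2 change 0.94, SE 0.16, limma adjusted p = 0.00138).

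The most abundant member in both groups was MRPL16, a protein that helps to position the incoming tRNA. It had 60.51, 60.52 and 59.17 FPKM in overexpression libraries and 34.38, 35.53 and 30.61 FPKM in vector libraries. Its overexpression values hardly varied, and the groups did not overlap (relative log2 change 0.57, SE 0.08, limma adjusted p = 0.000351). That call was lost after the level correction (limma adjusted p = 0.0598). MRPL37, a subunit without a bacterial homologue, had 52.49, 53.75 and 51.75 FPKM in overexpression libraries and 26.06, 23.94 and 25.06 FPKM in vector libraries, with little spread in either group (relative log2 change 0.79, SE 0.07, limma adjusted p = 0.000127). MRPL39, another such subunit, had 55.25, 49.43 and 50.36 FPKM in overexpression libraries and 26.06, 23.61 and 30.67 FPKM in vector libraries, again without overlap (relative log2 change 0.68, SE 0.11, limma adjusted p = 0.000772). The 5 most abundant members, MRPL16, MRPL37, MRPL39, MRPL15 and MRPL3, made up 26.9% of the summed FPKM of members in overexpression libraries. In vector libraries the first 5 were MRPL16, MRPL15, MRPL39, MRPS21 and MRPL3, with 26.2%.

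Around the exit tunnel, MRPL22, which lines it, had 8.17, 7.92 and 8.65 FPKM in overexpression libraries and 6, 3.84 and 4.73 FPKM in vector libraries. Its groups were apart, with a relative log2 change of 0.46 (SE 0.16, limma adjusted p = 0.00867). MRPL45, which ties the ribosome to the inner membrane near the tunnel exit, had 30.37, 29.76 and 27.62 FPKM in overexpression libraries and 18.39, 18.35 and 19.14 FPKM in vector libraries. Its groups did not overlap, and its call held after centring and after the length and GC correction but not after the level correction (limma adjusted p = 0.133). MRPL44, which has a ribonuclease III-like fold, had 13.60, 14.10 and 12.56 FPKM in overexpression libraries and 6.90, 4.59 and 5.66 FPKM in vector libraries (relative log2 change 0.91, SE 0.15, limma adjusted p = 0.00102). MRPL18, of the family that binds 5S ribosomal RNA in other ribosomes, had 27.23, 28.07 and 27.36 FPKM in overexpression libraries and 14.45, 10.42 and 16.44 FPKM in vector libraries. All of its overexpression values were above all of its vector values (relative log2 change 0.73, SE 0.16, limma adjusted p = 0.00264). MRPL47 and MRPL17, both with bacterial homologues, completed the 13, at relative log2 changes of 0.57 and 0.55.

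Another 9 MRPL members kept the call after centring and lost it under 1 of the other corrections, by length and GC or by level, namely MRPL3, MRPL15, MRPL16, MRPL23, MRPL36, MRPL40, MRPL41, MRPL45 and MRPL50. MRPL41, without a bacterial homologue, had 22.37, 26.05 and 31.53 FPKM in overexpression libraries and 8.05, 14.16 and 10.66 FPKM in vector libraries. The lowest overexpression value exceeded the highest vector value, at a relative log2 change of 1.0 (SE 0.21, limma adjusted p = 0.00327), and the length and GC correction gave an adjusted p of 0.129. Among the low members, MRPL23, which borders the tunnel exit in bacteria, had 3.19, 2.93 and 3.29 FPKM in overexpression libraries and 2.11, 1.87 and 1.93 FPKM in vector libraries, with no overlap. Its log2 change was -0.14 after the length and GC correction.

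The remaining 6 called MRPL members were MRPL13, MRPL20, MRPL34, MRPL35, MRPL48 and MRPL51, and each lost its call after centring and without at least 1 library. MRPL48 was the lowest called member by mean level, with 2.90, 2.03 and 2.95 FPKM in overexpression libraries and 0.64, 1.29 and 1.89 FPKM in vector libraries (limma adjusted p = 0.0405). Without overexpression replicate 1 or 3 or vector replicate 1 or 2, its limma adjusted p lay between 0.0711 and 0.114. MRPL51 had 12.36, 16.66 and 15.26 FPKM in overexpression libraries and 11.55, 10.47 and 11.51 FPKM in vector libraries, a narrow separation (relative log2 change 0.11, limma adjusted p = 0.0421). It lost its call without any library except overexpression replicate 1 (limma adjusted p 0.0712 to 0.119), and its log2 change was -0.07 after the length and GC correction. MRPL13, the homologue of a bacterial large subunit protein, had 6.57, 5.49 and 5.01 FPKM in overexpression libraries and 3.89, 3.99 and 4.23 FPKM in vector libraries (limma adjusted p = 0.0232), and lost it without overexpression replicate 1 or 2 or vector replicate 1 or 2 (0.0523 to 0.0617). The same held for MRPL20 without overexpression replicate 2 or 3 or vector replicate 2 or 3 (limma adjusted p 0.101 to 0.126). For MRPL35 it was overexpression replicate 1 or 3 or vector replicate 1 or 2 (limma adjusted p 0.0684 to 0.101), and for MRPL34 overexpression replicate 2 or 3 (0.0575 to 0.0599).

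Of the 11 MRPL members that were not called, 6 had groups that did not overlap (MRPL4, MRPL14, MRPL32, MRPL42, MRPL49 and MRPL55), and in several a single vector library stood low. MRPL49, a subunit without a bacterial homologue, had 17.82, 19.21 and 19.19 FPKM in overexpression libraries and 13.01, 1.6 and 11.42 FPKM in vector libraries. Vector replicate 2 was far below the other vector libraries, and the relative log2 change of 1.2 had a SE of 0.67 (limma adjusted p = 0.109). Without that library the log2 change on the deposited scale was 0.60 in place of 1.46 (limma adjusted p = 0.00628). MRPL14, the homologue of a bacterial core protein at the subunit interface, had 19.06, 19.24 and 19.54 FPKM in overexpression libraries and 13.94, 12.75 and 4.21 FPKM in vector libraries, with vector replicate 3 the low one (limma adjusted p = 0.0705). Its log2 change on the deposited scale was 0.52 without vector replicate 3 (limma adjusted p = 0.0063) and 1.32 without vector replicate 1 (0.0437). MRPL4, which reaches the tunnel wall in bacteria, had 5.42, 7.67 and 6.28 FPKM in overexpression libraries and 1.43, 3.46 and 4.74 FPKM in vector libraries, with vector replicate 1 the lowest (limma adjusted p = 0.0508, and 0.0497 without it). Without vector replicate 3 MRPL4 had an adjusted p of 0.0213 in limma. MRPL42, without a bacterial homologue, was among the least abundant members, at 2.37, 2.37 and 3.31 FPKM in overexpression libraries and 1.86, 2.04 and 1.62 FPKM in vector libraries. It was called higher after the length and GC correction (limma adjusted p = 0.0149), in which its transcript length was taken as 15582 bases. MRPL55 had 2.86, 2.53 and 2.85 FPKM in overexpression libraries and 1.39, 2.22 and 2.04 FPKM in vector libraries. In both, the lowest overexpression value was above the highest vector value. Calls were also gained for MRPL55 without vector replicate 2 (limma adjusted p = 0.0408), MRPL32 without vector replicate 3 (0.017) and MRPL19 without overexpression replicate 1 (0.0037).

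The groups overlapped in 5 MRPL members, MRPL19, MRPL27, MRPL43, MRPL52 and MRPL57, and 3 of these lay near 0 on the deposited scale. MRPL27, whose bacterial homologue reaches the peptidyl transferase centre, had 3.84, 3.30 and 3.37 FPKM in overexpression libraries and 2.98, 4.50 and 3.40 FPKM in vector libraries. MRPL43, without a bacterial homologue, had 2.56, 5.60 and 3.53 FPKM in overexpression libraries and 3.14, 3.79 and 4.04 FPKM in vector libraries. MRPL57, also without one, had 4.44, 5.18 and 3.21 FPKM in overexpression libraries and 3.60, 4.59 and 4.64 FPKM in vector libraries. In each of these, values of the groups ran through each other. Their relative log2 changes were -0.29, -0.24 and -0.28, with limma adjusted p-values of 0.891, 0.934 and 0.955. The sign of MRPL43 turned with the scaling, and those of MRPL27, MRPL43 and MRPL57 turned with the library left out.

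**Figure D2:**
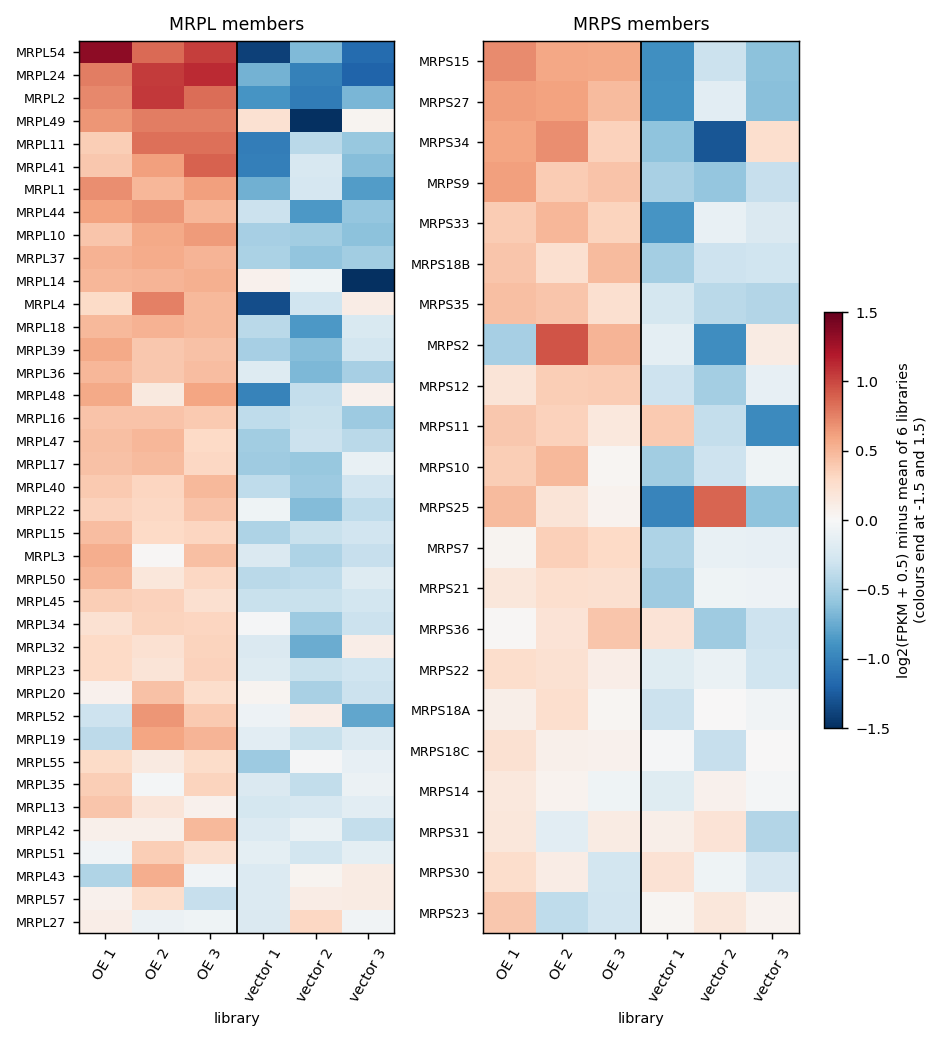
Each row is a member and each column a library (overexpression 1 to 3 at left, vector 1 to 3 at right), with MRPL members in the left panel and MRPS members in the right. Colour is log2(FPKM + 0.5) minus the mean of that member over the 6 libraries, limited to 1.5 either way. Single low vector libraries are visible for MRPL49 (replicate 2) and MRPL14 (replicate 3).

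Among the MRPS members, 12 of 22 rose and none fell, with a median log2 change of 0.54 (quartiles 0.28 and 0.75) on the deposited scale. That is 54.5% of them, beside 37.4% of all tested rows. With centring 6 MRPS members were called higher (27.3%, beside 24.0% of rows), with the length and GC correction 5 (22.7%, beside 23.2%), with the level correction 4 (18.2%, beside 20.6%) and with quantile normalization 3 (13.6%, beside 19.2%). After scaling or correction the share of MRPS members called higher was thus near or below that of all genes. Their median log2 change lay above that of all rows by 0.27, 0.08, 0.23 and 0.24 in the same order of settings, a difference that was not tested. MRPS9, MRPS15 and MRPS27 were called higher as deposited, after centring and under both the length and GC and the level correction. Without overexpression replicate 2 the count of MRPS members called higher was 6.

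MRPS15, whose bacterial homologue binds ribosomal RNA early in small subunit assembly, had 13.86, 12.70 and 12.54 FPKM in overexpression libraries and 4.14, 6.57 and 5.26 FPKM in vector libraries. The groups were well apart, with a relative log2 change of 0.97 (SE 0.16, limma adjusted p = 0.00113). MRPS27, an RNA-binding protein of the pentatricopeptide repeat family without a bacterial homologue, had 26.03, 25.68 and 23.47 FPKM in overexpression libraries and 8.67, 14.87 and 10.61 FPKM in vector libraries. Its vector values varied more than its overexpression values, and the relative log2 change was 0.87 (SE 0.18, limma adjusted p = 0.00273). MRPS9, whose bacterial homologue reaches the peptidyl-tRNA, had 34.30, 29.19 and 30.04 FPKM in overexpression libraries and 15.79, 14.73 and 17.40 FPKM in vector libraries. The spread within groups was small beside the gap (relative log2 change 0.68, SE 0.10, limma adjusted p = 0.00056).

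MRPS12, MRPS18B and MRPS35 kept the call after centring and lost it under the level correction. MRPS12, the homologue of the bacterial protein that sets decoding accuracy, had 7.87, 8.91 and 9.02 FPKM in overexpression libraries and 5.40, 4.63 and 6.24 FPKM in vector libraries, with no overlap. Its relative log2 change was 0.36 (SE 0.13, limma adjusted p = 0.00724), and its adjusted p was 0.83 after the length and GC correction. MRPS35, without a bacterial homologue, had 33.14, 32.16 and 28.63 FPKM in overexpression libraries and 19.93, 17.99 and 17.69 FPKM in vector libraries, clearly apart (relative log2 change 0.47, SE 0.09, limma adjusted p = 0.000957, and 0.0629 after the level correction).

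MRPS18A, MRPS18B and MRPS18C are paralogues of a single bacterial small subunit protein, and MRPS18A sits in the large subunit in the human structure. MRPS18B had 31.40, 27.55 and 32.59 FPKM in overexpression libraries and 16.19, 18.65 and 18.89 FPKM in vector libraries, without overlap (relative log2 change 0.49, SE 0.10, limma adjusted p = 0.00133). The length and GC correction gave an adjusted p of 0.06 and the level correction 0.0633, so neither kept it. MRPS18A had 3.35, 3.79 and 3.19 FPKM in overexpression libraries and 2.38, 3.13 and 2.98 FPKM in vector libraries. MRPS18C had 3.93, 3.48 and 3.46 FPKM in overexpression libraries and 3.25, 2.47 and 3.29 FPKM in vector libraries. In both the groups stood just apart, at relative log2 changes of -0.02 and -0.02, and neither was called (limma adjusted p = 0.167 and 0.181). Whether the 3 paralogues differ in their change was not tested.

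The other 6 called MRPS members, MRPS7, MRPS10, MRPS21, MRPS22, MRPS33 and MRPS34, lost the call after centring and without at least 1 library. MRPS34, without a bacterial homologue, had 12.54, 13.56 and 10.56 FPKM in overexpression libraries and 5.22, 3.06 and 9.87 FPKM in vector libraries, with vector replicate 3 close to the overexpression values. Its relative log2 change was 0.82 (SE 0.36, limma adjusted p = 0.0414). It lost the call without any library except vector replicate 3 (limma adjusted p 0.0692 to 0.109), and without vector replicate 2 its log2 change on the deposited scale was 0.72 in place of 1.09. MRPS21, the most abundant MRPS member, had 33.73, 35.70 and 35.36 FPKM in overexpression libraries and 20.55, 28.56 and 28.19 FPKM in vector libraries (limma adjusted p = 0.03). Without any 1 of the overexpression libraries its adjusted p in limma was 0.0606 to 0.0798, and without vector replicate 1 its log2 change on the deposited scale was 0.29 in place of 0.45. Its sign turned under quantile normalization and the level correction. MRPS33, without a bacterial homologue, had 4.55, 4.95 and 4.37 FPKM in overexpression libraries and 1.6, 3.08 and 2.84 FPKM in vector libraries (limma adjusted p = 0.0184, and 0.0585 without overexpression replicate 2). MRPS10 lost its call without overexpression replicate 1 or 2 or vector replicate 1 or 2 (limma adjusted p 0.0583 to 0.0723), MRPS7 without overexpression replicate 2 or 3 or vector replicate 1 (0.0702 to 0.0931) and MRPS22 without overexpression replicate 1 or 2 (0.0554 to 0.0578).

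Besides MRPS18A and MRPS18C, 8 MRPS members were not called, and in all of these the groups overlapped. MRPS30, which sits in the large subunit despite its name, had 13.91, 12.41 and 9.38 FPKM in overexpression libraries and 13.48, 11 and 9.58 FPKM in vector libraries. MRPS14 had 6.62, 6.14 and 5.63 FPKM in overexpression libraries and 5.14, 6.22 and 5.77 FPKM in vector libraries, and MRPS31 had 6.47, 5.05 and 6.23 FPKM in overexpression and 6.11, 6.67 and 4.08 FPKM in vector libraries. The values of the groups ran through each other in all of these, at relative log2 changes of -0.20, -0.17 and -0.18, and the signs on the deposited scale were positive but turned after centring. MRPS23, without a bacterial homologue, had 8.31, 4.61 and 4.93 FPKM in overexpression libraries and 6.28, 6.97 and 6.38 FPKM in vector libraries. Overexpression replicate 1 was above all vector libraries and the other 2 below them (relative log2 change -0.44, limma adjusted p = 0.528). Without that library MRPS23 was called lower (log2 change -0.42 in place of -0.17 on the deposited scale, limma adjusted p = 0.0309). MRPS23 was the single member called lower in any fit that left out a library.

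MRPS36 was named as a ribosomal protein and is listed in RefSeq as KGD4, a subunit of the 2-oxoglutarate dehydrogenase complex. It had 5.29, 6.14 and 7.16 FPKM in overexpression libraries and 6.13, 3.46 and 4.14 FPKM in vector libraries, with vector replicate 1 inside the overexpression range (limma adjusted p = 0.133, and 0.0236 without that library). MRPS2, whose bacterial homologue binds late in small subunit assembly, had 4.96, 14.37 and 10.51 FPKM in overexpression libraries and 6.46, 3.53 and 7.93 FPKM in vector libraries, with overexpression replicate 1 far below its own group (limma adjusted p = 0.238). MRPS11 had 2.44, 2.33 and 1.99 FPKM in overexpression libraries and 2.41, 1.24 and 0.65 FPKM in vector libraries (limma adjusted p = 0.155, and 0.0162 without vector replicate 1). MRPS25 had 3.26, 2.6 and 2.30 FPKM in overexpression libraries and 0.86, 4.47 and 1.28 FPKM in vector libraries, where replicate 2 was the highest value of all (limma adjusted p = 0.412, and 0.00994 without it).

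Both subunits had higher summed levels in the overexpression libraries, and the ratio between groups was larger for MRPL members. MRPL members summed to 665.7, 668.7 and 674.7 FPKM in overexpression libraries and to 366.1, 348.0 and 369.1 FPKM in vector libraries. MRPS members summed to 285.9, 284.6 and 269.4 FPKM in overexpression libraries and to 168.6, 183.3 and 185.8 FPKM in vector libraries. The groups were apart for both subunits, with ratios of group means of 1.85 for MRPL members and 1.56 for MRPS members. FPKM summed over all rows was also higher, at 127768 to 128538 in overexpression libraries and 87162 to 88738 in vector libraries. Neither ratio is scaled to that difference between the groups. The MRPL sum divided by the MRPS sum was 2.33, 2.35 and 2.50 in overexpression libraries (2.39 ± 0.10, SD, n = 3) and 2.17, 1.90 and 1.99 in vector libraries (2.02 ± 0.14, SD, n = 3), a ratio of 1.19 between the groups. All overexpression values of this quotient were above all vector values. The quotient of sums exceeds 1 partly because 39 members are set against 22. By the median FPKM over members, MRPL members stood at 13.0, 14.1 and 14.6 FPKM in overexpression libraries and 6, 4.59 and 5.34 FPKM in vector libraries, and MRPS members at 8.09, 10.0 and 9.2 FPKM in overexpression libraries and 6.1, 6.39 and 6.31 FPKM in vector libraries. By that measure MRPL members lay above MRPS members in the overexpression libraries and below them in the vector libraries. Being a score over chosen members it is given without a test, and the difference in share called between the subunits was not tested. As a share of the library sum, all members held 7.40, 7.43 and 7.39 of each 1000 FPKM in overexpression libraries and 6.13, 6.09 and 6.25 in vector libraries, a ratio of 1.2.

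**Figure D3:**
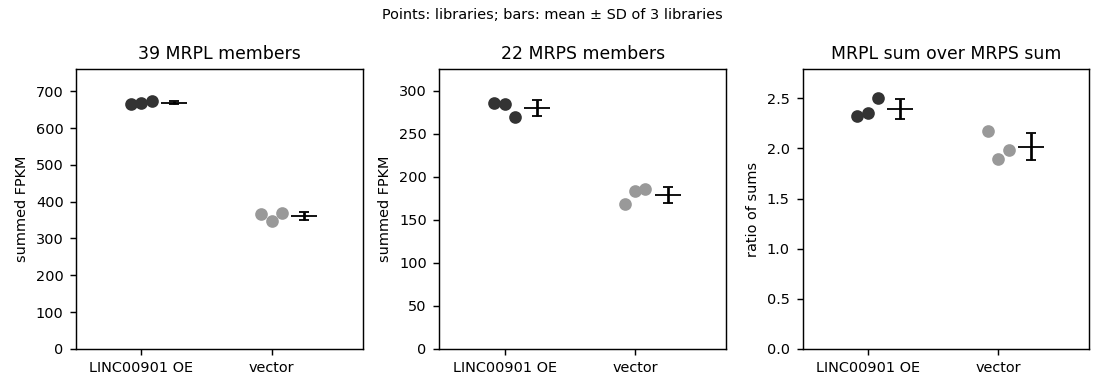
Summed FPKM of the 39 MRPL members (left), of the 22 MRPS members (middle) and the first divided by the second (right), with a point for each library and bars for the mean ± SD of 3 libraries. LINC00901 overexpression libraries stand above vector libraries in all panels, with quotients of 2.33 to 2.50 in overexpression and 1.90 to 2.17 in vector libraries.

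Single levels per gene length were spread widely in both subunits. Group means of MRPL members ran over 2.63 to 60.1 FPKM in overexpression libraries (median 13.8) and 1.08 to 33.5 FPKM in vector libraries (median 5.72). MRPS members ran over 2.25 to 34.9 FPKM in overexpression libraries (median 9.27) and 1.43 to 25.8 FPKM in vector libraries (median 5.84). Assigned by the human structure in place of the name, with MRPS18A and MRPS30 counted as large and MRPS36 left out, 28 of 41 large and 12 of 19 small subunit proteins rose. These counts and those of the classes below stand beside 37.4% of all tested rows that rose by the same rule. Large subunit proteins with a bacterial homologue rose in 18 of 23 cases (median log2 change 0.81 on the deposited scale) and those without in 10 of 17 (0.65). In the small subunit it was 6 of 10 with a homologue (0.60) and 6 of 9 without (0.74). After centring, 14 of 23 large subunit proteins with a homologue and 8 of 17 without were called higher. In the small subunit 3 of 10 and 3 of 9 were, beside 24.0% of all tested rows. After the level correction the small subunit had 2 of 10 and 2 of 9, beside 20.6% of rows. In these classes MRPS18A and MRPS18B count as without a bacterial homologue, although they are paralogues of MRPS18C, which counts as with one. MRPL55, counted among the 41, was left unassigned in them. These classes were not compared by a test.

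The 17 rows that join an MRPL or MRPS name with other genes held 7 that rose, 1 that fell and 9 that were not called. Of all tested rows, 37.4% rose and 11.9% fell by the same rule. The fall was in the row joining MRPS6 with SLC5A3, a myo-inositol transporter gene, at 16.44, 8.05 and 13.28 FPKM in overexpression libraries and 22.36, 18.12 and 23.06 FPKM in vector libraries (relative log2 change -1.04, limma adjusted p = 0.0371). That call was lost without overexpression replicate 3 or any vector library (limma adjusted p 0.0515 to 0.0977), and without overexpression replicate 2 the log2 change on the deposited scale was -0.50 in place of -0.78. The row joining MRPS28 with TPD52 had 4.47, 4.40 and 4.69 FPKM in overexpression libraries and 0.96, 3.23 and 0.94 FPKM in vector libraries (limma adjusted p = 0.0208). It kept that call only without vector replicate 2, since without any other library the adjusted p in limma was 0.0542 to 0.0609. Which gene of a joined row carries the difference cannot be told apart.

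Subunits under other names went both ways. AURKAIP1, a small subunit protein, had 14.89, 13.25 and 11.18 FPKM in overexpression libraries and 4.19, 6.25 and 4.58 FPKM in vector libraries (relative log2 change 1.05, limma adjusted p = 0.00115, and 0.0699 after the length and GC correction). CHCHD1, another, had 5.95, 4.97 and 5.23 FPKM in overexpression libraries and 2.57, 1.26 and 1.89 FPKM in vector libraries (relative log2 change 1.06, limma adjusted p = 0.0025). DAP3, the GTP-binding small subunit protein also studied in cell death, fell, with 7.07, 6.83 and 6.62 FPKM in overexpression libraries and 8.15, 8.96 and 8.20 FPKM in vector libraries (relative log2 change -0.55, limma adjusted p = 0.0371). Its groups were apart, but the call was lost without any 1 of the 6 libraries (limma adjusted p 0.054 to 0.121), although after centring it was 0.00558. PTCD3, a pentatricopeptide repeat protein of the small subunit, had 9.74, 8.82 and 9.85 FPKM in overexpression libraries and 10.15, 10.73 and 11.38 FPKM in vector libraries, was not called as deposited (limma adjusted p = 0.159) and was called lower after centring (0.0133). GADD45GIP1, of the large subunit, had 3.20, 3.14 and 3.61 FPKM in overexpression libraries and 3.25, 0.43 and 1.34 FPKM in vector libraries (limma adjusted p = 0.101, and 0.0095 without vector replicate 1).

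Genes that work with the mitochondrial ribosome were counted by role. Of 11 translation factor and insertion genes, 4 rose and none fell, which is 36.4% beside 37.4% of all tested rows, with a median log2 change of 0.33 on the deposited scale. The list as a whole was therefore close to all genes. TUFM, the elongation factor that brings aminoacyl-tRNA to the ribosome, had 90.16, 98.76 and 102.49 FPKM in overexpression libraries and 49.33, 44.24 and 50.66 FPKM in vector libraries. Its groups were far apart (relative log2 change 0.74, limma adjusted p = 0.000227). OXA1L, which inserts new proteins into the inner membrane, and MTIF2, an initiation factor, rose at relative log2 changes of 0.60 and 0.57. MTFMT, which formylates the initiator tRNA, was called with a relative change of 0.06 on the log2 scale (limma adjusted p = 0.0487), with the call gone after centring (0.435) and without any library except vector replicate 2 (0.0685 to 0.163).

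Of 14 mitochondrial aminoacyl-tRNA synthetase genes, which load tRNAs with amino acids, 8 rose and none fell, which is 57.1% beside 37.4% of all tested rows (median log2 change 0.53 on the deposited scale). After centring 5 were called, 35.7% beside 24.0%. IARS2, TARS2, WARS2 and LARS2 changed most among them, at relative log2 changes of 0.46, 0.46, 0.45 and 0.44. IARS2 had 73.62, 67.69 and 69.18 FPKM in overexpression libraries and 43.53, 39.29 and 43.57 FPKM in vector libraries, without overlap. Its call was lost after the level correction (limma adjusted p = 0.264).

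Of 21 genes for assembly of the mitochondrial ribosome and modification of its RNA, 5 rose, 2 fell and 14 were not called. The 23.8% called higher stand beside 37.4% of all tested rows, with a median log2 change of 0.25 on the deposited scale, beside 0.27 over all tested rows. NOA1, a GTPase linked to assembly of the small subunit, had 22.93, 25.31 and 22.02 FPKM in overexpression libraries and 12.79, 14.11 and 8.91 FPKM in vector libraries (relative log2 change 0.70, limma adjusted p = 0.00379). TRUB2, a pseudouridine synthase family member, rose at a relative log2 change of 0.41. MTG2, a GTPase of large subunit assembly, fell, with 1.71, 1.47 and 1.24 FPKM in overexpression libraries and 2.76, 2.21 and 2.55 FPKM in vector libraries (relative log2 change -0.88, limma adjusted p = 0.0131, and 0.0515 without overexpression replicate 3). TFB1M, which methylates the small ribosomal RNA, had 3.97, 3.46 and 3.30 FPKM in overexpression libraries and 4.11, 6.95 and 5.69 FPKM in vector libraries (relative log2 change -0.82, limma adjusted p = 0.0445). Its call was lost without any library except vector replicate 1 (limma adjusted p 0.0657 to 0.121), while after centring it was 0.0163.

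Of 12 genes for mitochondrial transcription and RNA, 3 rose and 2 fell. The 25% called higher lie below the 37.4% of all tested rows, and the median log2 change of 0.19 on the deposited scale lies below the 0.27 of all rows. POLRMT, the mitochondrial RNA polymerase, had 5.47, 5.75 and 6.33 FPKM in overexpression libraries and 2.96, 3.01 and 2.87 FPKM in vector libraries (relative log2 change 0.61, limma adjusted p = 0.000785). SUPV3L1, an RNA helicase, rose at 0.23 relative to the median gene. TEFM, the elongation factor of that polymerase, fell, with 3.91, 4.52 and 5.39 FPKM in overexpression libraries and 6.98, 7.22 and 8.06 FPKM in vector libraries (relative log2 change -0.91, limma adjusted p = 0.0077). POLG2, the accessory subunit of the mitochondrial DNA polymerase, had 4.57, 4.99 and 4.38 FPKM in overexpression libraries and 7.14, 6.84 and 6.72 FPKM in vector libraries, also apart (relative log2 change -0.79, limma adjusted p = 0.00461).

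**Figure D4:**
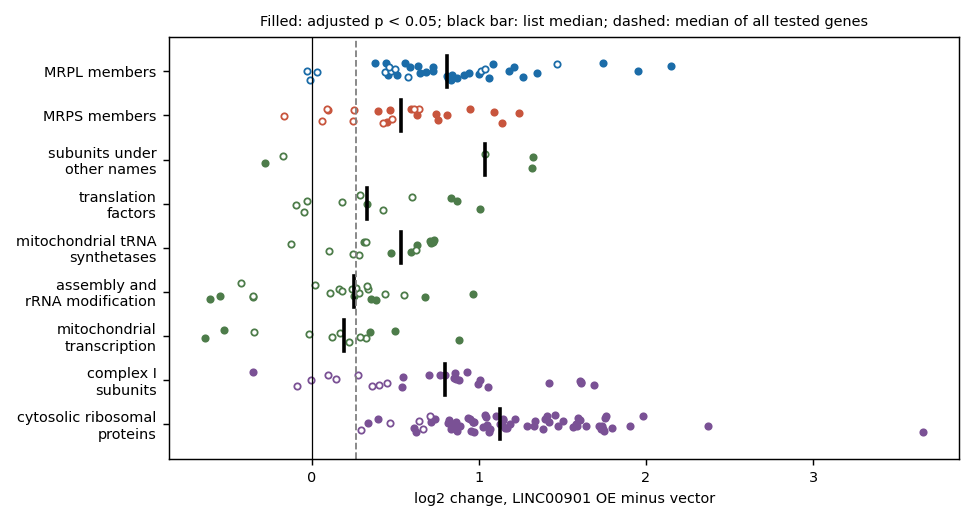
Log2 change of every tested gene (points, LINC00901 overexpression minus vector, deposited scale) in the MRPL and MRPS members, the lists of genes that work with the mitochondrial ribosome, complex I and the cytosolic ribosome, filled where the adjusted p was under 0.05. Black bars are list medians and the dashed line the median of all tested genes. Medians stand at 0.81 for MRPL members, 0.54 for MRPS members, 0.80 for complex I and 1.12 for cytosolic ribosomal proteins.

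Cytosolic ribosomal protein and complex I genes both had higher median changes than the MRPS members. Of 71 tested cytosolic ribosomal protein rows, 66 rose and none fell (median log2 change 1.12 on the deposited scale). That is 93.0%, beside 37.4% of all tested rows. After the length and GC correction 59 were still called higher (83.1%, beside 23.2% of rows). After the level correction 44 were (62.0%, beside 20.6%, median 0.49) and after quantile normalization 41 (57.8%, beside 19.2%, median 0.46). Of 27 complex I subunits, which include no mitochondrially encoded gene here, 18 rose and 1 fell (median log2 change 0.80). The 18 are 66.7%, beside 37.4% of all tested rows. After the length and GC correction 10 were called higher (37.0%, beside 23.2%) and 2 lower. After the level correction and after quantile normalization 12 were higher (44.4%, beside 20.6% and 19.2%) and 2 lower. Cytosolic ribosomal protein rows together held 9.54, 9.43 and 9.39 times the summed FPKM of the mitochondrial members in overexpression libraries and 7.08, 6.83 and 6.87 times in vector libraries. The quotient averaged 9.45 ± 0.08 in overexpression libraries and 6.93 ± 0.14 in vector libraries (SD, n = 3 each), with no overlap. These differences between lists were not tested.

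Transcript length and level moved with the change over all genes, and members are short and above the middle in level. The median length of the longest annotated transcript was 1582 bases over members (1490 for MRPL and 1642 for MRPS) and 3461 bases over tested rows. In the shortest quintile of tested rows, 312 to 2002 bases, the median log2 change on the deposited scale was 0.59 over all rows and 0.75 over the 44 members in it, while in the longest quintile it was 0.05 over all rows. In the highest quintile by level, from 11.5 FPKM, it was 0.54 over all rows and 0.83 over 24 members, and in the lowest quintile 0.08 over all rows. By GC content it was 0.01 over all rows in the lowest quintile and 0.52 in the highest. Across the 61 members the log2 change had r = -0.34 and rho = -0.28 with log2 length, and r = 0.30 and rho = 0.43 with log2 level. These are descriptions over genes of the same libraries, and the change and the level share their FPKM values. The length and GC correction brought the median to 0.41 over MRPL members, 0.13 over MRPS members and 0.05 over all corrected rows. The part of length, GC content and level in the higher values of members was not tested beyond these corrections.

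**Figure D5:**
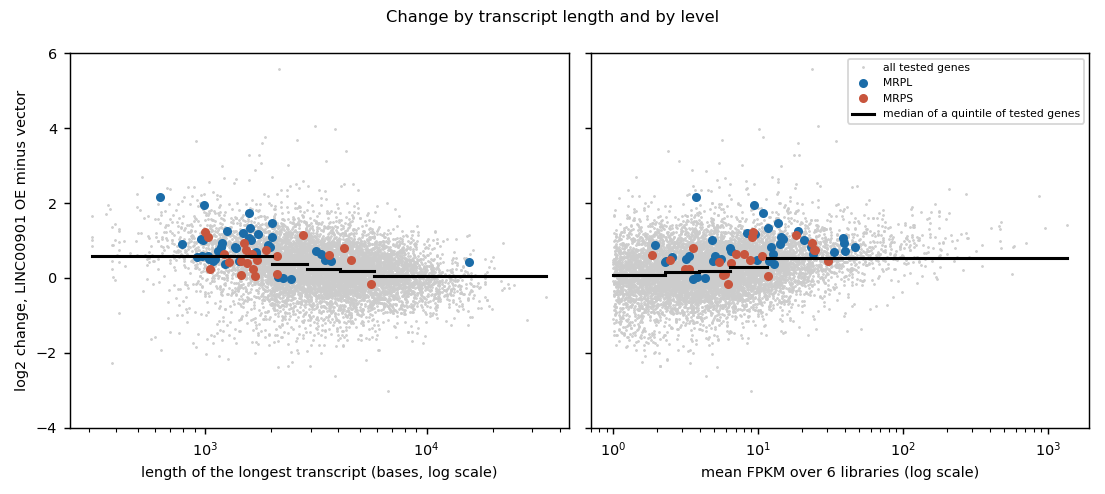
Log2 change on the deposited scale (LINC00901 overexpression minus vector) against transcript length (left, log axis) and mean FPKM over 6 libraries (right, log axis), with all tested genes in grey, MRPL members in blue and MRPS members in red. Black lines are medians over quintiles of all tested genes, from 0.59 in the shortest to 0.05 in the longest quintile.

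Sequence copies could share reads with members. In the GENCODE 29 annotation, 27 members have at least 1 named pseudogene and 34 have none. Called higher were 18 of the 27 and 22 of the 34, beside 37.4% of all tested rows. How the authors treated reads that match several places is not given in the sources used here, so values of those 27, MRPS21 with 8 named copies first among them, are uncertain to that extent.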

How the data were processed

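Total RNA of 6 MIA PaCa-2 samples was sequenced, 3 with LINC00901 overexpression and 3 with the empty vector. The values deposited by the authors are FPKM, 1 per gene row and library, to 2 decimals. The tools named in the submitters' processing notes are cutadapt, FastQC and HISAT2, and the genome build is hg19. Tool versions, and how the FPKM were computed, were not given in the sources used here. FPKM scales out gene length and library total, so depth is unknown and no counting interval was made. No whole reads were recovered from low values, which are rounded to 2 decimals; whether they fall on steps of single reads was not settled.

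Values were transformed to log2(FPKM + 0.5), which understates changes of low genes. Rows whose 6 values averaged 1 FPKM or more entered the test (9694), and limma 3.58.1 in R 4.3.3 compared the groups with an intensity trend, no replicate block and Benjamini-Hochberg adjustment over all rows, at a threshold of 0.05. The procedure was tested on simulated data. Alternatives changed the pseudocount, filter, scaling, trend, threshold and libraries used, and corrected for transcript length and GC content (GENCODE 29, 91.3% of tested rows matched by symbol, all 61 members) or for mean level. Promoters came from RefSeq, and only these carry coordinates. The groups' replicate numbers gave no pairing. Lists were described by counts and medians. Members and lists were chosen with earlier results of these data known. Named members were, per subunit, the 6 largest and 6 smallest changes, the 3 highest and 3 lowest levels, the MRPS18 paralogues, MRPS12, MRPS30 and MRPS36; for each pathway list, up to 4 called genes of largest absolute change. Other members are named where a count of calls or a role needs them, after their values were seen. Python 3.11.15, pandas 2.3.3 and matplotlib 3.10.9 made summaries and figures. A marker gene of the lists is not reported here.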

Additional observations from a re-analysis of the deposited data

How the results depend on the processing

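Over all genes, 4773 calls among 9694 tested rows became 2818 with a mean of at least 5 FPKM, where only 4830 rows were tested. They became 2881 at an adjusted p of 0.01 and 3587 to 4344 without 1 library. The 40 member calls became 19 after quantile normalization, 25 after the length and GC correction and 21 after the level correction, and 30 to 41 without 1 library. Without overexpression replicate 1 the 35 calls were 34 higher and 1 lower, MRPS23, which also counts in the MRPS range below. Adding the joined rows and other-named subunits gave 51 calls of 83, with 49 higher and 2 lower. MRPL calls were 16 after quantile normalization, 17 after the level correction and 23 to 29 without 1 library, against 28. MRPS calls were 3 after quantile normalization, 6 after centring, 5 and 4 after the length and GC and the level corrections, 6 at an adjusted p of 0.01 and 6 to 12 without 1 library (6 without overexpression replicate 2), against 12. The median log2 change of members, 0.65, was 0.62 and 0.69 with pseudocounts of 1 and 0.1, 0.75 with a mean of at least 5 FPKM, 0.33 after quantile normalization, 0.44 after centring, 0.37 and 0.36 after the length and GC and the level corrections, and 0.62 to 0.72 without 1 library. The MRPL to MRPS quotient between groups, 1.19, was 1.81 from median FPKM, 1.13 by structural subunit and 1.15 to 1.23 without 1 library; all of these stayed above 1. Replicate numbers did not pair the samples, since same-numbered deviations had r of -0.037, -0.006 and -0.005; the replicate block gave 37 member calls, all higher, and 4227 over all genes, of which the higher ones were 33.6% of tested rows.

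Signs turned for 14 of the 61 members under some setting. Under quantile normalization, centring, the length and GC correction and the level correction, in that order, log2 changes were -0.14, -0.18, -0.42 and -0.14 for MRPL43, -0.13, -0.11, -0.10 and -0.15 for MRPS14, -0.30, -0.15, -0.28 and -0.30 for MRPS30, and -0.13, -0.12, -0.18 and -0.15 for MRPS31. The length and GC correction turned 11 members in all, with -0.069 for MRPL51, -0.12 for MRPL55, -0.36 for MRPS18A, -0.14 for MRPL23, -0.049 for MRPL20, -0.022 for MRPL52 and -0.0045 for MRPL34. The level correction gave -0.00089 for MRPL51 and -0.079 for MRPS21, and quantile normalization -0.10 for MRPS21. Without 1 library, log2 changes ran over -0.14 to 0.12 for MRPL27, -0.24 to 0.26 for MRPL43, -0.15 to 0.16 for MRPL57, -0.057 to 0.22 for MRPS30 and -0.11 to 0.21 for MRPS31. The causes were not tested. Of 582 values recomputed for the 35 members named by the rule, 474 kept direction and call, 67 lost the call, 9 gained it and 32 changed sign. Depth is unknown, so counting error of the low members cannot be given.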

Other observations

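Several members share their promoter region with a gene on the other strand. Within 1000 bases, 19 members have such a neighbour starting in the opposite direction in RefSeq, and 9 of the neighbours had a tested row of their own. Among these 9, PTCD2, a pentatricopeptide repeat gene beside MRPS27, rose (log2 change 1.04 on the deposited scale, limma adjusted p = 0.0193), as did NCAPD2, a condensin subunit gene beside MRPL51 (0.52, limma adjusted p = 0.00427). EME1, a structure-specific endonuclease subunit gene beside MRPL27, fell (log2 change -0.53, limma adjusted p = 0.0476). The other 6 were not called. Among them PPP1R10, beside MRPS18B, had the largest log2 change of the 9 (1.16, limma adjusted p = 0.0537). TCP1, a cytosolic chaperonin subunit gene beside MRPL18, had 0.15 (limma adjusted p = 0.189), and APBA3 beside MRPL54 had 0.40 (limma adjusted p = 0.0682). Of all tested rows, 37.4% rose and 11.9% fell by the same rule. The median log2 change was 0.15 over the 9 neighbours and 0.65 over the members beside them. Whether members and neighbours differ was not tested.

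MRPL members with the ETS letters in their promoter had a median log2 change of 0.68 (11 members) and those without of 0.93 (22 members). In MRPS members the medians were 0.42 with (10) and 0.64 without (11). For the NRF1 letters the medians were 0.65 with (4) and 0.83 without (29) in MRPL members, and 0.75 with (3) and 0.54 without (18) in MRPS members. These are descriptions with no test.

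In 5 members a single library stood at or under 1/2 of the next in its group: MRPS2 in overexpression replicate 1, MRPL4 and MRPL48 in vector replicate 1, MRPL49 in vector replicate 2 and MRPL14 in vector replicate 3. The same was true of 766 values over the 9694 tested rows. By library that was 0% to 3.28% of the members and 0.918% to 1.8% of the tested rows.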
